A study of Arabidopsis thaliana with 12 samples.

Results

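The genes described are 10 members of the plasma membrane intrinsic protein (PIP) family of aquaporins in Arabidopsis thaliana, 5 of the PIP1 class, numbered 1 to 5, and 5 of the PIP2 class, numbered 1, 2, 6, 7 and 8. The rule that picks them names gene identifiers and uses no measured value, but they were chosen with earlier results of these data known. They are 10 of the 13 PIP genes and 10 of the 33602 genes in the count table. RNA was sequenced from whole seedlings aged 1 week, in 4 groups of 3 libraries. The groups were cdk8 seedlings given 50 µM abscisic acid (ABA) for 3 h, cdk8 seedlings given mock treatment, wild-type seedlings given the same ABA treatment and wild-type seedlings given mock treatment. The labels name neither the allele of the cdk8 mutant nor the accession of the wild type. CDK8 is the kinase of the Mediator complex, which joins transcription factors to RNA polymerase II, and ABA is the hormone that plants make when water is short. The labels do not say whether the 3 libraries of a group came from separate cultures, so p-values measure the spread between these libraries, which may be technical.

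Aquaporins are channel proteins that let water cross a membrane along its gradient, and PIP proteins are the main ones of the plant plasma membrane. They assemble as tetramers, and PIP1 proteins generally reach the plasma membrane together with PIP2 partners. In roots they carry much of the water that passes through cells, in leaves they act around the veins and in guard cells, and some isoforms also pass carbon dioxide or hydrogen peroxide. In ABA signalling the kinase SnRK2.6 (also called OST1) is known to phosphorylate a PIP2 protein, that of PIP2;1, in guard cells.

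The coding sequences of the family are close to each other, and the exon printed here shows how close the genes with differing RNA responses are. In RefSeq (TAIR10.1), each of the 13 PIP coding sequences held 2 in-frame runs of codons for Asn-Pro-Ala, the signature motif of the water pore, with 121 codons from the start of one run to the start of the other. Coding identity was 75.7 to 85.0% between PIP1 genes, 69.1 to 94.8% between PIP2 genes and 63.0 to 68.7% across the classes. The longest annotated coding sequence within the counted exons was used, and gaps counted as mismatches. For PIP1;2 that sequence had 906 bases, against 861 to 864 in the other PIP1 genes, and the 75.7% is its pair with PIP1;5. An exon of exactly 141 bases, which holds the second Asn-Pro-Ala run in the 4 genes below, was found in 10 of the 13 genes. PIP2;7 and PIP2;8, with 84.0% coding identity, had opposite ABA responses. Their exons lie at chr4:16709605-16709745 (plus strand) and chr2:7302825-7302965 (plus strand), and 16 of the 141 bases differ, shown in capitals.
PIP2;7: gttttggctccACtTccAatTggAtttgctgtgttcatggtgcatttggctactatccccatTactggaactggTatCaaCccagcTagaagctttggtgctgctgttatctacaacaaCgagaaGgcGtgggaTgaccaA
PIP2;8: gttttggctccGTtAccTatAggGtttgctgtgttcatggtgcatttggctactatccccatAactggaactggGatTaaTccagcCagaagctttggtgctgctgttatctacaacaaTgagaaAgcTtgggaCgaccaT
PIP2;2 and its neighbour PIP2;3 are the closest pair at 94.8% coding identity. The same exon lies at chr2:15613842-15613982 (minus strand) in one and chr2:15618588-15618728 (plus strand) in the other, and 3 bases differ, again in capitals.
PIP2;2: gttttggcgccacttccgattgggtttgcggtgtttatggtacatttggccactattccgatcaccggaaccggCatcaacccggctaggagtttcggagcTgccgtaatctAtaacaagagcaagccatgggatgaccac
PIP2;3: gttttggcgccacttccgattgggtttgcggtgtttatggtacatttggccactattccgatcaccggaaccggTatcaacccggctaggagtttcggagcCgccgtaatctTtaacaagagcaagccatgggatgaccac
Of the 50-base exon windows of PIP2;2, 82.2% occur once in the genome, and 94.1% of its 100-base windows do. The other 9 members had 100% unique windows at both lengths. Only exact matches were counted. Whether reads with mismatches were placed at a near copy, such as between PIP2;7 and PIP2;8, was not tested.

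Libraries held 17675785 to 27415053 assigned fragments, and the deepest 3 were those of cdk8 with ABA. The library number of cdk8 ABA replicate 3 lies outside the consecutive run of all the others, and the labels do not say why. CDK8 itself had 10.5, 5.2 and 9.36 TMM-scaled CPM (counts per 1000000 fragments) in cdk8 ABA libraries and 5.24, 9.32 and 6.01 CPM in cdk8 mock libraries, against 29.2, 29.4 and 26.7 CPM in wild-type ABA libraries and 21.9, 19.7 and 20.3 CPM in wild-type mock libraries. It was thus reduced but still detected in the mutant. RD29B and RAB18, classical ABA-induced genes, were higher with ABA in both genotypes without overlap of libraries. Wild-type ABA replicate 3 and cdk8 ABA replicate 2 lay away from the rest of their groups on principal component 4, which held 3.1% of the variance, and results that change without them are given below. File headers call the mock columns 0h, so 3 h of time may be part of each ABA comparison. In whole seedlings, fewer cells of a type and less RNA per cell cannot be told apart.

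The PIP transcript pool kept a similar size in the 4 groups while its make-up differed. The 10 genes together held 0.294 to 0.334% of all assigned fragments in cdk8 ABA libraries, 0.318 to 0.345% in cdk8 mock libraries, 0.296 to 0.354% in wild-type ABA libraries and 0.300 to 0.310% in wild-type mock libraries. Levels between genes are compared here as TPM (transcripts per 1000000), which corrects for gene length. In wild-type mock libraries, PIP2;1 led with 713 ± 14.9 TPM (SD, n = 3), which ranked 132 among the 21151 genes tested, followed by PIP1;2, PIP2;7, PIP1;3 and PIP1;1 at means of 600.2, 456, 382 and 242 TPM, each apart from the next in all libraries. The next 3, PIP2;6, PIP2;2 and PIP1;5, overlapped with their neighbours at 203, 191 and 183 TPM. PIP1;4 followed at 132 TPM, and PIP2;8 was last at 17.6 ± 0.559 TPM (SD, n = 3), with 285 to 312 fragments per library.

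With ABA, PIP2;7 took the first place in both genotypes. It made up 25.3 to 30.6% of the PIP TPM in cdk8 ABA libraries against 15.1 to 16.3% in cdk8 mock libraries, and 21.7 to 23.1% in wild-type ABA libraries against 14.2 to 15.3% in wild-type mock libraries. PIP2;1 made up 12.3 to 13.6% of the pool in cdk8 ABA libraries against 21.3 to 23.1% in cdk8 mock libraries, and 13.4 to 15.3% in wild-type ABA libraries against 22.5 to 23.2% in wild-type mock libraries. In the wild-type ABA libraries the genes at ranks 2 to 5 overlapped with their neighbours, at means of 500.4, 481, 437 and 431 TPM, while in the cdk8 ABA libraries rank 1, at 926 TPM, was apart from the next. The gene at rank 2, at 501 TPM, was apart from rank 3 by TPM but overlapped with it by RPKM, which also corrects for gene length but here scales by the TMM-adjusted size of each library. The 5 PIP2 genes together held 58.8 to 60.5% of the PIP TPM in cdk8 ABA libraries, 53.1 to 53.8% in cdk8 mock libraries, 52.2 to 54.7% in wild-type ABA libraries and 50.4 to 51.2% in wild-type mock libraries. The cdk8 ABA libraries thus lay above all 9 others in the PIP2 share.

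**Figure D1:**
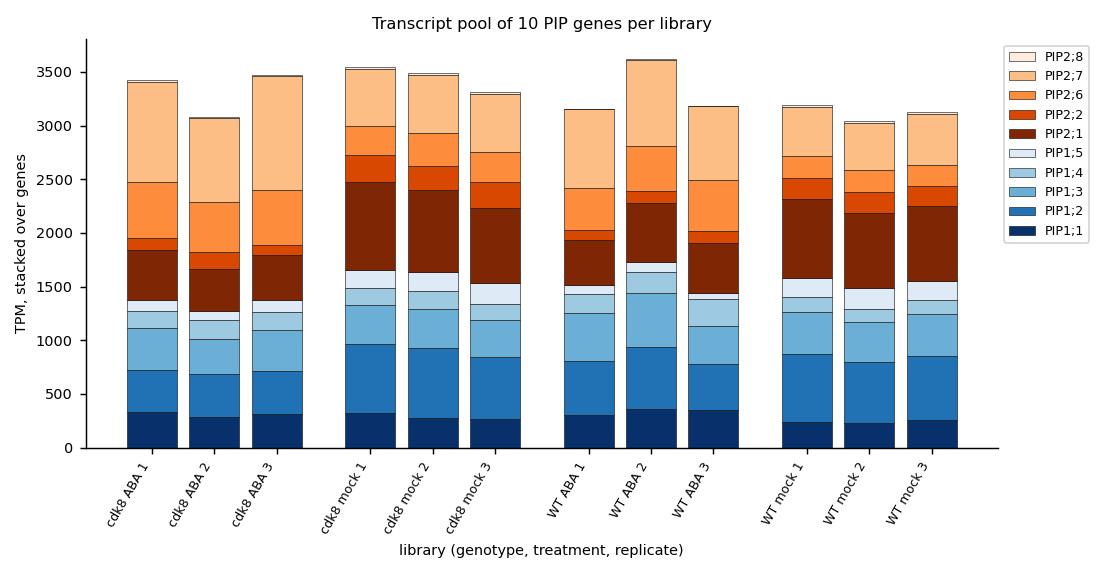
Transcript levels of the 10 PIP genes stacked per library, in TPM on the vertical axis, with the 12 libraries by genotype, treatment and replicate on the horizontal axis and PIP1 genes in blue, PIP2 genes in brown to orange. The totals lie between 3040 and 3622 TPM, while the light orange segment of PIP2;7 is larger and the dark brown one of PIP2;1 smaller in the ABA libraries.

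ABA moved PIP genes in both directions. In cdk8, 2 of the 10 members rose and 5 fell with ABA, where 61.0% of all genes tested were called (30.6% higher and 30.4% lower). In wild type, 4 rose and 4 fell, where 64.7% were called (31.9% higher and 32.8% lower). The share of members called, 7 and 8 of 10, lies near these backgrounds, and the median log2 fold change of the 10 was -0.33 in cdk8 and 0.01 in wild type, beside medians over all genes of 0.01 and -0.01. Over all 13 PIP genes, 2 rose and 7 fell in cdk8, and 4 rose and 7 fell in wild type. Their median log2 fold change was -0.68 in cdk8 and -0.40 in wild type. All 5 PIP2 genes were called in each genotype, 2 higher and 3 lower. The ABA and mock libraries did not overlap in 7 members in cdk8 and in 8 in wild type. Over all genes tested, 67.6% in cdk8 and 68.3% in wild type did not overlap, so the members lie near these shares. Calls are at an adjusted p under 0.05 from the quasi-likelihood test of edgeR with Benjamini-Hochberg adjustment over 21151 genes, and every fold change below is on the log2 scale with its standard error. The genotypes' ABA comparisons have no libraries in common.

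The only 2 members that rose in both genotypes are of the PIP2 class. PIP2;7 (AT4G35100, chr4:16708552-16710289 in TAIR10, plus strand, 4 exons) encodes an isoform known to bind the ABA-induced membrane protein TSPO. It had 858, 696 and 967 CPM in cdk8 ABA libraries against 502, 502 and 486 CPM in cdk8 mock libraries, and 705, 789 and 669.8 CPM in wild-type ABA libraries against 418, 421 and 453 CPM in wild-type mock libraries. Every ABA library lay above every mock library. The change was 0.76 ± 0.12 in cdk8 (adjusted p = 5.81e-05) and 0.74 ± 0.12 in wild type (adjusted p = 6.29e-05).

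PIP2;6 (AT2G39010, chr2:16291477-16294034, plus strand), an isoform expressed in the veins of the rosette, gave a like picture at a lower level. It had 458, 402 and 452 CPM in cdk8 ABA libraries against 243, 268 and 245 CPM in cdk8 mock libraries. In wild type it had 367, 399 and 444 CPM in ABA libraries against 189, 188 and 177 CPM in mock libraries. No ABA library overlapped with a mock library in either genotype, and the change was 0.79 ± 0.10 in cdk8 (adjusted p = 6.33e-06) and 1.13 ± 0.10 in wild type (adjusted p = 1.82e-07).

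The other 3 PIP2 genes and 1 PIP1 gene fell in both genotypes. PIP2;1 (AT3G53420, chr3:19803655-19805713, minus strand), the isoform of roots and guard cells named above, had 453, 377 and 414 CPM in cdk8 ABA libraries against 817, 754 and 675 CPM in cdk8 mock libraries, and 434, 579 and 479 CPM in wild-type ABA libraries against 718, 719.7 and 709 CPM in wild-type mock libraries. The groups did not overlap, and the changes were -0.85 ± 0.12 in cdk8 (adjusted p = 2.39e-05) and -0.52 ± 0.12 in wild type (adjusted p = 0.00135).

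PIP2;2 (AT2G37170, chr2:15613402-15614857, minus strand), an isoform that contributes to water uptake by root cells, had 88.0, 121 and 69.1 CPM in cdk8 ABA libraries against 210.4, 183 and 191 CPM in cdk8 mock libraries. In wild type it had 79.4, 98.3 and 89.5 CPM in ABA libraries against 159.8, 165 and 156 CPM in mock libraries. The ABA libraries were all lower, with the widest spread in cdk8, where replicate 2 (1 of the pair that stood apart) was highest. The changes were -1.07 ± 0.16 in cdk8 (adjusted p = 4.08e-05) and -0.85 ± 0.16 in wild type (adjusted p = 0.000300).

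PIP1;5 (AT4G23400, chr4:12220743-12222371, plus strand) had 82.7, 64.1 and 86.0 CPM in cdk8 ABA libraries against 139.6, 142 and 148 CPM in cdk8 mock libraries. It had 67.1, 80.7 and 47.2 CPM in wild-type ABA libraries against 148, 164 and 140.3 CPM in wild-type mock libraries. It was the only PIP1 gene called lower in both genotypes, by -0.89 ± 0.16 in cdk8 (adjusted p = 0.000251) and -1.22 ± 0.16 in wild type (adjusted p = 1.37e-05).

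PIP2;8 (AT2G16850, chr2:7301581-7303437, plus strand), the scarcest member, had 10.3, 8.10 and 7.63 CPM in cdk8 ABA libraries against 15.4, 12.6 and 13.6 CPM in cdk8 mock libraries. In wild type it had 4.4, 6.39 and 5.66 CPM in ABA libraries, which rest on 76 to 108 fragments each, against 15, 14.6 and 15 CPM in mock libraries. Groups did not overlap. The changes were -0.68 ± 0.14 in cdk8 (adjusted p = 0.000968) and -1.44 ± 0.15 in wild type (adjusted p = 1.52e-06).

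The other 4 PIP1 genes were called in at most 1 genotype. PIP1;1 (AT3G61430, chr3:22733309-22735335, plus strand) had 332, 271 and 311 CPM in cdk8 ABA libraries against 323, 279 and 262 CPM in cdk8 mock libraries, which overlap. It had 313, 387 and 372 CPM in wild-type ABA libraries against 238, 241 and 263 CPM in wild-type mock libraries, which do not. It rose in wild type by 0.53 ± 0.11 (adjusted p = 0.000984), while the value in cdk8 was 0.08 ± 0.11 (adjusted p = 0.560).

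PIP1;4 (AT4G00430, chr4:185450-187627, minus strand), an isoform known to pass hydrogen peroxide, had 205, 213 and 215 CPM in cdk8 ABA libraries against 203, 206 and 186 CPM in cdk8 mock libraries. In wild type it had 229.7, 258 and 346 CPM in ABA libraries against 177, 163 and 175 CPM in mock libraries, with the highest value in replicate 3, 1 of the libraries that stood apart. It rose in wild type by 0.69 ± 0.12 (adjusted p = 0.000225), and by 0.51 without that library. In cdk8, where the libraries overlap, the value was 0.09 ± 0.12 (adjusted p = 0.553).

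PIP1;2 (AT2G45960, chr2:18910295-18911982, plus strand), an isoform with a large part in the water permeability of roots, had 381, 385 and 385 CPM in cdk8 ABA libraries against 654, 637 and 556 CPM in cdk8 mock libraries. In wild type it had 526, 599.8 and 437 CPM in ABA libraries against 624, 586 and 607 CPM in mock libraries. The groups were apart in cdk8 and overlapped in wild type. It fell in cdk8 by -0.68 ± 0.11 (adjusted p = 0.000116), with -0.22 ± 0.11 in wild type (adjusted p = 0.103). PIP1;3 (AT1G01620, chr1:225665-227302, minus strand) was called in neither genotype, with 295 to 359.6 CPM in cdk8 ABA libraries against 314 to 347 CPM in cdk8 mock libraries, and 347 to 507 CPM in wild-type ABA libraries against 356 to 371 CPM in wild-type mock libraries.

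**Figure D2:**
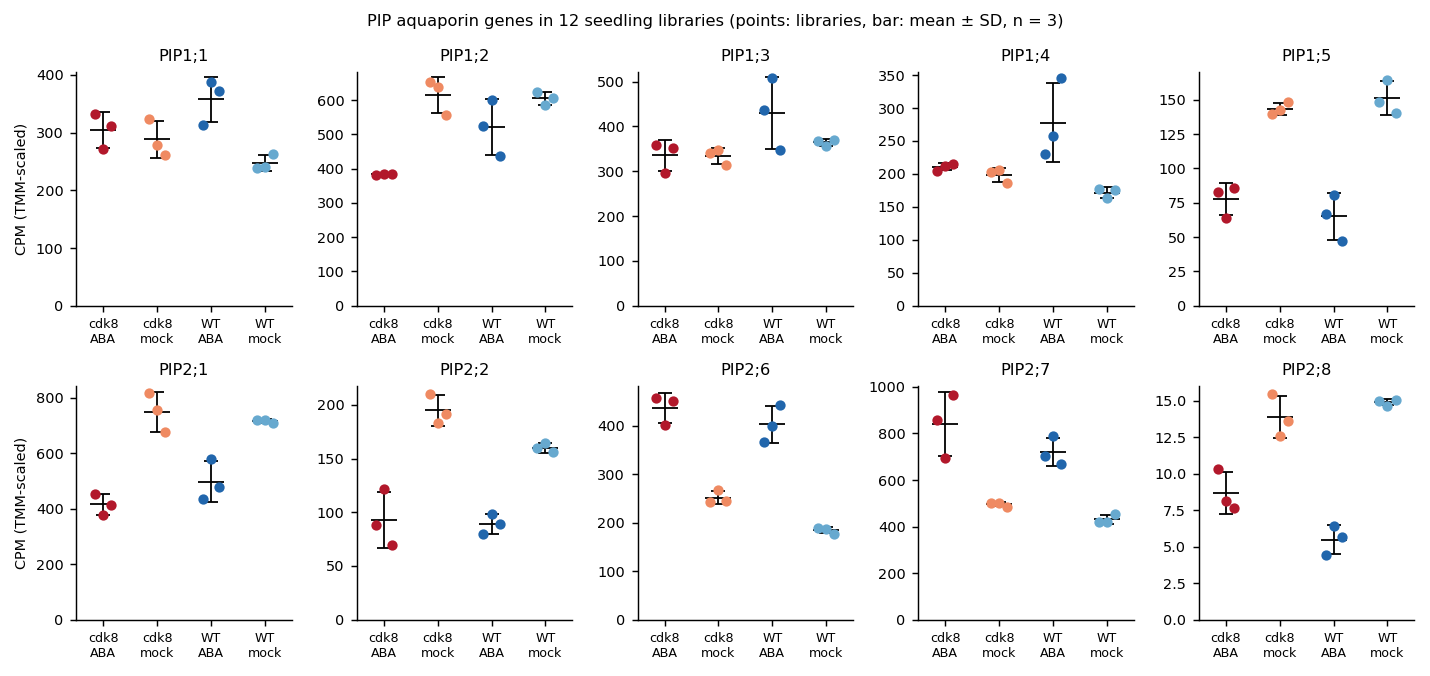
CPM of each PIP gene in the 12 libraries, with 1 panel a gene, the 4 groups on the horizontal axis, 1 point a library and bars for the mean ± SD of 3 libraries. In the panels of PIP2;6 and PIP2;7 every ABA point lies above every mock point, and in 4 panels (the last of the upper row and the first, second and last of the lower row) every ABA point lies below the mock points of its genotype.

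**Figure D3:**
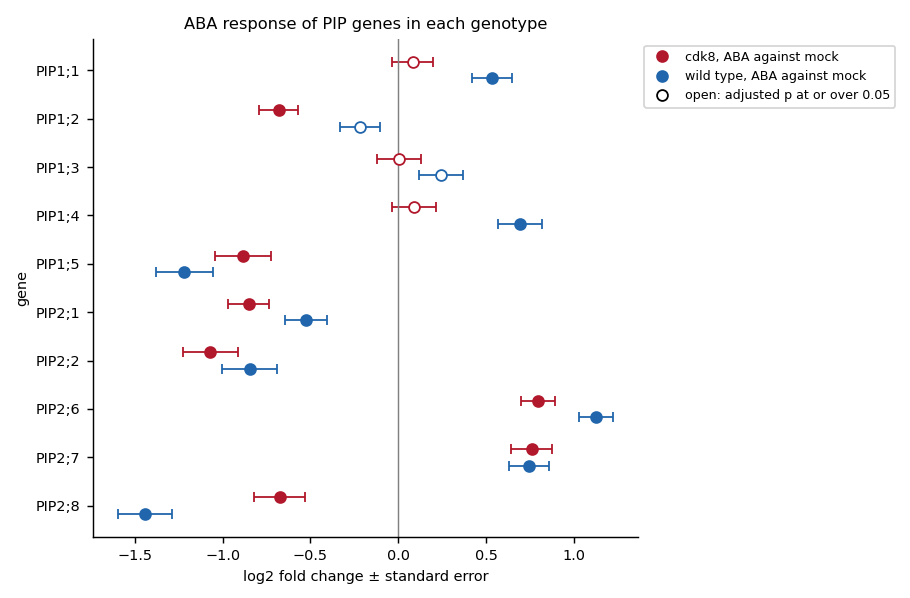
Log2 fold change of ABA against mock on the horizontal axis for each of the 10 genes, with standard errors, for cdk8 in red and wild type in blue. Filled points have an adjusted p under 0.05, which holds for 7 genes in cdk8 and 8 in wild type.

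Markers of organs moved in the same comparisons. Of 12 root genes, 2 were higher and 7 lower with ABA in cdk8, and 1 was higher and 7 lower in wild type. Their summed CPM was 170.1 to 275 in cdk8 ABA libraries against 356 to 393 in cdk8 mock libraries, and 214 to 235 in wild-type ABA libraries against 342 to 407 in wild-type mock libraries, with no marker at 0. All 6 photosynthesis genes were lower in both genotypes. Of 9 hypoxia genes, all were higher with ABA in both genotypes. The summed CPM of the hypoxia genes was 642 to 932 in cdk8 ABA libraries against 52.6 to 63.0 in cdk8 mock libraries. In wild type it was 1565 to 2129 in ABA libraries against 101 to 132 in mock libraries. The mean log2 of CPM plus 1 over the hypoxia genes was highest in the ABA libraries that stood apart. It was 5.355 in cdk8 ABA replicate 2 against 4.664 and 4.422 in replicates 1 and 3. In wild-type ABA replicate 3 it was 6.354, against 5.532 and 5.459 in replicates 1 and 2. The part of these lists in the PIP results was not tested.

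Without ABA, 1 of the 10 members differed between the genotypes, where 13.1% of all genes were called (5.15%, or 1089 genes, higher in cdk8 and 1692 genes lower). PIP2;6 was higher in cdk8, with the mock values given above, 243 to 268 CPM in cdk8 against 177 to 189 CPM in wild type, and a difference of 0.45 ± 0.10 (adjusted p = 0.00788). None was called lower by edgeR, DESeq2 or limma-voom, and none was lower at an unadjusted p under 0.05 in edgeR. In 4 further members, visible in the values above, the libraries of the genotypes did not overlap, although the test did not call them. Over all genes, 38.1% had libraries that did not overlap in this comparison. Comparisons between genotypes use the same libraries as the ABA comparisons, so they are not independent of them.

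After ABA, 1 member was higher and 2 were lower in cdk8 than in wild type, where 23.6% of all genes were called (10.6%, or 2244 genes, higher in cdk8 and 2755 genes lower). PIP2;8 was higher, at 7.63 to 10.3 CPM in cdk8 against 4.4 to 6.39 CPM in wild type, by 0.66 ± 0.15 (adjusted p = 0.00749). PIP1;2 was lower, at 381 to 385 CPM in cdk8 against 437 to 599.8 CPM in wild type, by -0.44 ± 0.11 (adjusted p = 0.0125), and without wild-type ABA replicate 2 the value was -0.34 with an adjusted p of 0.0520. PIP1;4 was lower, at 205 to 215 CPM in cdk8 against 229.7 to 346 CPM in wild type, by -0.40 ± 0.12 (adjusted p = 0.0335), but without wild-type ABA replicate 3 the value was -0.21 with an adjusted p of 0.124. PIP1;3 missed the threshold at -0.36 ± 0.13 (adjusted p = 0.0514), and was called without wild-type ABA replicate 3 at -0.49 (adjusted p = 0.00579).

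Hypoxia genes, which differ between the genotypes in these libraries, are given beside these differences. Of 9 such genes, 4 were lower in cdk8 after mock and 5 after ABA, and their summed CPM after ABA was 642 to 932 in cdk8 against 1565 to 2129 in wild type. In the root list, 4 of 12 genes were lower in cdk8 after ABA. Of the 6 photosynthesis genes, 3 were higher in cdk8 after ABA and 0 lower, and 2 were called higher in the difference of ABA responses. Their summed CPM after ABA was 13760 to 16220 in cdk8 against 12700 to 13940 in wild type. The part of these lists in the PIP differences was not tested.

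**Figure D4:**
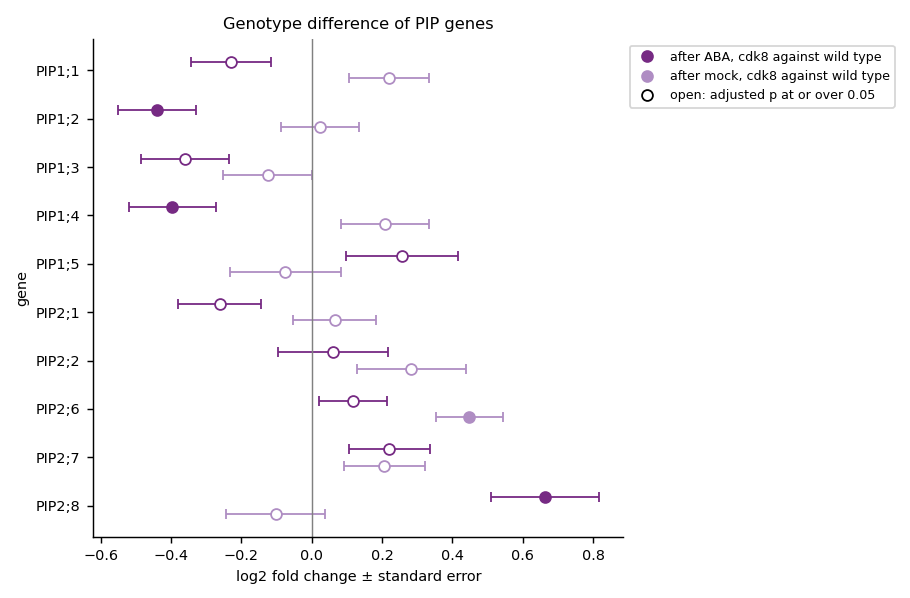
Log2 fold change of cdk8 against wild type on the horizontal axis for each of the 10 genes, with standard errors, after ABA in dark purple and after mock in light purple. Filled points have an adjusted p under 0.05, which holds for 1 gene after mock and 3 genes after ABA.

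The difference between the genotypes' ABA responses, tested as an interaction, was called for 0 of the 10 members by edgeR, where 5.21% of all genes were called (2.37% higher and 2.85% lower). At an unadjusted p under 0.05 there were 5 members, beside 21.4% of all genes. DESeq2 called 4 members, beside 8.15% of all genes, and limma-voom 0, beside 4.71%. The nearest was PIP2;8, whose fall was smaller in cdk8, with a difference of 0.77 ± 0.21 (approximate 95% interval 0.36 to 1.18, adjusted p = 0.0501), and 8 of 23 alternative settings called it, among them those without cdk8 ABA replicate 2, cdk8 ABA replicate 3 or wild-type ABA replicate 2. PIP1;4 followed with -0.60 ± 0.18 (interval -0.95 to -0.26, adjusted p = 0.0636), then PIP1;2 with -0.46 ± 0.16 (adjusted p = 0.107) and PIP1;1 with -0.45 ± 0.16 (adjusted p = 0.124). These last 3 are the members called with ABA in 1 genotype but not in the other, and the call on their difference changed with the tool. DESeq2 called all 3, with adjusted p of 0.0105, 0.0359 and 0.0472 in the same order, and its other call was PIP2;8 (adjusted p = 0.0233). In edgeR, PIP1;2 was called without wild-type ABA replicate 3, at -0.58 (adjusted p = 0.0235), and PIP1;4 without wild-type ABA replicate 1, at -0.73 (adjusted p = 0.0232). Without both libraries that stood apart, edgeR called the same pair, at -0.59 (adjusted p = 0.0147) and -0.43 (adjusted p = 0.0416). In that fit edgeR also called PIP2;8, at 0.83 (adjusted p = 0.0419). PIP2;7 had a difference of 0.01 ± 0.16 with an interval of -0.31 to 0.33, and it is the member whose responses lay nearest to each other.

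The 3 remaining PIP genes were all scarce, at 13.3 to 40.7 CPM on average in wild-type mock libraries. PIP2;4, a root isoform, had 12.8, 15.7 and 13.4 CPM in cdk8 ABA libraries against 45.7, 35.4 and 37.4 CPM in cdk8 mock libraries, and 16.6, 17.7 and 15.5 CPM in wild-type ABA libraries against 36.8, 35.5 and 49.7 CPM in wild-type mock libraries. It fell by -1.50 ± 0.14 in cdk8 (adjusted p = 5.18e-07) and -1.29 ± 0.14 in wild type (adjusted p = 2.23e-06), and in cdk8 that was a larger fall than in any of the 10 members. PIP2;3 fell by -1.09 ± 0.17 in cdk8 (adjusted p = 6.02e-05) and -0.88 ± 0.17 in wild type (adjusted p = 0.000357), and its level is uncertain, since reads placed both there and at its near-identical neighbour were not counted. PIP2;5 had 0.02 ± 0.15 in cdk8 (adjusted p = 0.914) and fell by -0.40 ± 0.16 in wild type (adjusted p = 0.0397). The difference between the genotypes' responses was called for 0 of these 3 genes by edgeR, DESeq2 or limma-voom, and 0 had an unadjusted p under 0.05 in edgeR.

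Other aquaporin classes held changes in both directions as well. Of 8 tonoplast (TIP) genes tested, 2 rose and 3 fell with ABA in cdk8 and 1 rose and 1 fell in wild type. TIP2;2, a water channel of the root vacuole, fell by -1.35 ± 0.18 in cdk8 (adjusted p = 1.41e-05) and -1.40 ± 0.18 in wild type (adjusted p = 9.13e-06). TIP3;2, a seed isoform, was called higher in both on few fragments, 100, 14 and 47 in cdk8 ABA libraries against 0, 3 and 2 in cdk8 mock libraries, and 9, 11 and 7 in wild-type ABA libraries against 0 in each wild-type mock library. Of 11 NIP and SIP genes tested, 1 rose and 3 fell in cdk8 and 3 rose and 4 fell in wild type. NIP6;1, a boric acid channel, fell by -2.41 ± 0.23 in cdk8 (adjusted p = 4.98e-07) and -3.99 ± 0.26 in wild type (adjusted p = 1.14e-08), and SIP1;1, a channel of the endoplasmic reticulum, rose by 0.33 ± 0.08 in cdk8 (adjusted p = 0.00189) and 0.50 ± 0.08 in wild type (adjusted p = 5.33e-05).

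Genes whose products, or the products of their relatives, are known to act on PIP proteins also moved in both directions. Of 12 such genes, 7 rose and 4 fell with ABA in cdk8, and 7 rose and 3 fell in wild type. TSPO, which takes PIP2;7 from the cell surface for breakdown, had 179, 223 and 185 CPM in cdk8 ABA libraries against 0.688, 0.943 and 0.792 CPM in cdk8 mock libraries, and 324, 313 and 320.2 CPM in wild-type ABA libraries against 1.25, 0.333 and 1.16 CPM in wild-type mock libraries. It rose by 7.92 ± 0.24 in cdk8 (adjusted p = 1.46e-11) and 8.45 ± 0.24 in wild type (adjusted p = 8.00e-12). RMA2, of a family of ubiquitin ligases at the endoplasmic reticulum of which a pepper member acts on PIP2 proteins, had 5.54, 3.91 and 5.10 CPM in cdk8 ABA libraries against 38.4, 38.2 and 37.5 CPM in cdk8 mock libraries, and 4.63, 3.73 and 3.07 CPM in wild-type ABA libraries against 22.3, 24.8 and 28.7 CPM in wild-type mock libraries. It fell by -2.97 ± 0.15 in cdk8 (adjusted p = 1.09e-09) and -2.73 ± 0.16 in wild type (adjusted p = 3.71e-09). These are RNA levels, and protein or channel activity was not measured.

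Across the 12 libraries, which share their group structure, the PIP genes fell into patterns that run across the classes. The highest Pearson correlation of log2 CPM between members was 0.946, between PIP2;6 and PIP2;7, and the lowest was -0.881, between PIP2;2 and PIP2;7. Among 7892 genes with a symbol and at least 5 CPM in a group, the most like each member were taken. For the PIP1 genes, in number order, these were CKB4 (r = 0.871), THM1 (0.962), MC3 (0.925), KCS10 (0.949) and LHCB4.2 (0.988). For the PIP2 genes, in number order, they were Tic20-V (0.977), CRK27 (0.981), ZFWD1 (0.982), EXL5 (0.982) and ROPGEF5 (0.984). These correlations describe the 12 libraries, whose first principal component, with 74.8% of the variance, separates ABA from mock.

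Short motifs upstream of the genes were counted on both strands in RefSeq (TAIR10.1). The start used is that of RefSeq, which for the members lies upstream of the gene start printed above. For PIP2;8 the window is chr2:7301034-7301333, while its printed start is 7301581. Bases between these starts were not searched. In the 300 bases before the RefSeq start, the ABRE core ACGTG was in 0 of 10 members and in 25.6% of 27443 genes. The G-box CACGTG, which contains that core, was in 0 members and 7.09% of genes. The DRE core CCGAC was in 1 member, PIP1;3, and 13.9% of genes. The evening element AAAATATCT was in 0 members and 2.79% of genes. In the 1000 bases before the start, the ABRE core was in 5 of 10 members and 54.4% of genes, and the DRE core in 5 members and 37.4% of genes. A match is only a run of letters, and the absence of one says only that these letters are not in the window.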

How the data were processed

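Values are raw counts per gene, which the authors made from paired-end fragments with featureCounts 1.4.6, per the file headers. Per the submitters' processing notes, FastQC, TopHat2 and the TAIR10 genome were used, and per the labels' protocols RNA was isolated with Trizol. The file headers record neither a strand option nor multi-mapping reads, so the defaults applied: strand was ignored and reads placed at several loci were not counted. From 33602 genes, filterByExpr kept 21151. Scaling was TMM, and quasi-likelihood tests of edgeR 4.0.16 (R 4.3.3) used all 12 libraries and a mean for each of the 4 groups, with Benjamini-Hochberg adjustment. TPM used the gene length of the table. Limma-voom (limma 3.58.1), DESeq2 1.42.0, other scalings, filters and thresholds, and each library left out were alternatives. Sequences are from RefSeq TAIR10.1, whose nuclear coordinates matched the table's exons: 97.9% of 120610 introns between them start with GT and end with AG. Named genes were the members, the other PIP genes, for each list the called gene with the smallest p per direction and genotype under ABA, the gene most correlated with each member, and CDK8, RD29B and RAB18. Of the organ and hypoxia lists this took PRP3, RHD2, LHCB1.1, RCA and ADH1, and only their list counts are printed. The members and lists were chosen with earlier results of these data known. Columns were joined to samples by library number, and numbers in the column names do not pair libraries, with correlations of deviations between -0.294 and 0.086.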

Additional observations from a re-analysis of the deposited data

How the results depend on the processing

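Across 24 alternatives to the fit (23 for the difference of responses), the numbers of PIP genes called with ABA in each genotype stayed within 1.5 times of the reported ones, except under a 2-fold limit. That limit left 1 of 10 in cdk8 (0 higher, 1 lower), 3 in wild type (1 higher, 2 lower), 0 between genotypes after mock (0 higher) and 0 after ABA (0 higher, 0 lower). Fitting only the groups compared gave 2 calls between genotypes after mock, both higher, and 1 after ABA with 0 lower. An adjusted p under 0.01 gave 1 after ABA with 0 lower, and upper-quartile scaling gave 1 lower. Leaving out 1 library at a time gave 1 to 2 higher and 1 to 2 lower after ABA. The difference of responses, 0 in the reported fit, had 1 call with RLE scaling (lower), 1 with upper-quartile scaling (higher), 1 with a filter at 1 CPM (higher), 1 without organelle genes (higher), 4 with DESeq2 (1 higher, 3 lower), 3 without wild-type ABA replicate 3 and cdk8 ABA replicate 2 (1 higher, 2 lower), and 0 to 1 with each library left out (0 to 1 in either direction). Between genotypes after ABA, PIP1;4 lost its call in 9 of 24 settings and PIP1;2 in 4, while PIP1;3 gained one in 5. Values near 0 changed sign without a call. PIP1;3 with ABA in cdk8 was -0.0034 with RLE or DESeq2, -0.067 with upper-quartile scaling, -0.0019 with only the groups compared and -0.054 to 0.085 with each library left out. PIP2;7 in the difference of responses was -0.0078 with RLE or DESeq2 and -0.10 to 0.13 with each library left out. PIP2;2 between genotypes after ABA was -0.20 without both libraries that stood apart and -0.19 to 0.22 with each left out. Between genotypes after mock, leaving out each library gave -0.020 to 0.094 for PIP1;2 and -0.00038 to 0.14 for PIP2;1. Upper-quartile scaling moved the median of all genes by -0.14 with ABA in wild type. A replicate block from the column numbers, chosen after seeing the data, left 7 and 8 calls with ABA and 1 after mock, and gave 1 lower after ABA. The cause of these changes was not tested, and the order of levels was the same by RPKM, although PIP2;6 and the next gene then overlapped in cdk8 ABA libraries.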
